A study of Rattus norvegicus with 12 samples.

Results

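The rapamycin responses of a pair of rat tumour cell lines were set against each other, gene by gene, to ask where a line that keeps growing in rapamycin answered the drug differently from the line it came from. ELT3 cells lack functional Tsc2 and stem from a leiomyoma, a benign smooth muscle tumour, of the uterus of an Eker rat, a strain with a germline Tsc2 mutation. ELT3-245 is a rapamycin-resistant line grown from 1 ELT3 xenograft tumour of 1 mouse that did not respond to the drug. Both lines share the Tsc2 genotype and were treated with DMSO, the solvent, or with 20 nM rapamycin for 24 hours, in 3 replicate samples each, which gave 12 Clariom S arrays. The volumes in the labels (10 µl of stock at 20 mM, added to 10 ml) would make 20 µM, while the stated dose is 20 nM, and the dose is given here as stated. For each of the 23188 probe sets, the response of a line is its mean log2 signal in rapamycin minus that in DMSO, and the quantity described here is the response of ELT3-245 cells minus the response of ELT3, over all 12 arrays. A positive difference ("higher") thus stands for a stronger rise, a weaker fall or an opposite change in ELT3-245 cells, and a negative one ("lower") for the reverse. Calls required a size of at least 1.5-fold and an adjusted p under 0.05 in limma, with the Benjamini-Hochberg method applied across the whole array. ELT3-245 is a single line from a single tumour, so resistance cannot be told apart from any other property of that line, and nothing in the labels says that replicates were separate cultures, so the p-values measure the spread between these samples.

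Rapamycin binds FKBP12 and inhibits mTORC1, the kinase complex that the TSC1-TSC2 complex restrains and that is therefore overactive in cells without TSC2. mTORC1 drives the synthesis of proteins, nucleotides, lipids and ribosomes, in part through the transcription factors SREBP and ATF4, and restrains lysosomal gene expression through TFEB and insulin receptor signalling to AKT through feedback. In tumours without TSC2 rapamycin slows growth and is not known for killing the cells.

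ELT3 rapamycin replicate 3 stood apart from the other arrays. It had the highest median (6.82, against 6.69 to 6.79), the largest SD of its deviations from its group mean (0.247, against 0.164 to 0.208), the lowest mean correlation with its group (0.993) and the lowest of the array weights that limma estimated (0.436, against 0.754 to 1.65). Without it 758 differences were called (349 higher, 409 lower), and with array weights 1190 (586 higher, 604 lower), against the 981 given next. The response of ELT3-245 cells differed from that of ELT3 for 981 of 23188 probe sets (4.23%), 503 higher (2.17%) and 478 lower (2.06%), of which 449 differed at least 2-fold and 41 at least 4-fold. Among the 12330 probe sets with a group mean at or above the median of all values (6.75), 7.27% were called. By themselves, the ELT3 response was called for 3692 probe sets (15.9%), with 1732 raised (7.47%) and 1960 lowered (8.45%), and that of ELT3-245 cells for 2465 (10.6%), with 1310 raised (5.65%) and 1155 lowered (4.98%). Rapamycin thus changed the expression of many genes in the resistant line as well. The difference of responses rests on all 4 groups, and its median standard error was 0.23 on the log2 scale against 0.16 for the response of a single line. The number of calls depended on the arrays: it dropped to 534 without ELT3 DMSO replicate 2, to 568 without ELT3-245 DMSO replicate 1 or ELT3-245 rapamycin replicate 2, to 583 without ELT3-245 rapamycin replicate 1 and to 631 without ELT3-245 DMSO replicate 3. Tested against a 1.5-fold difference rather than against none (limma treat), 72 probe sets passed.

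**Figure D1:**
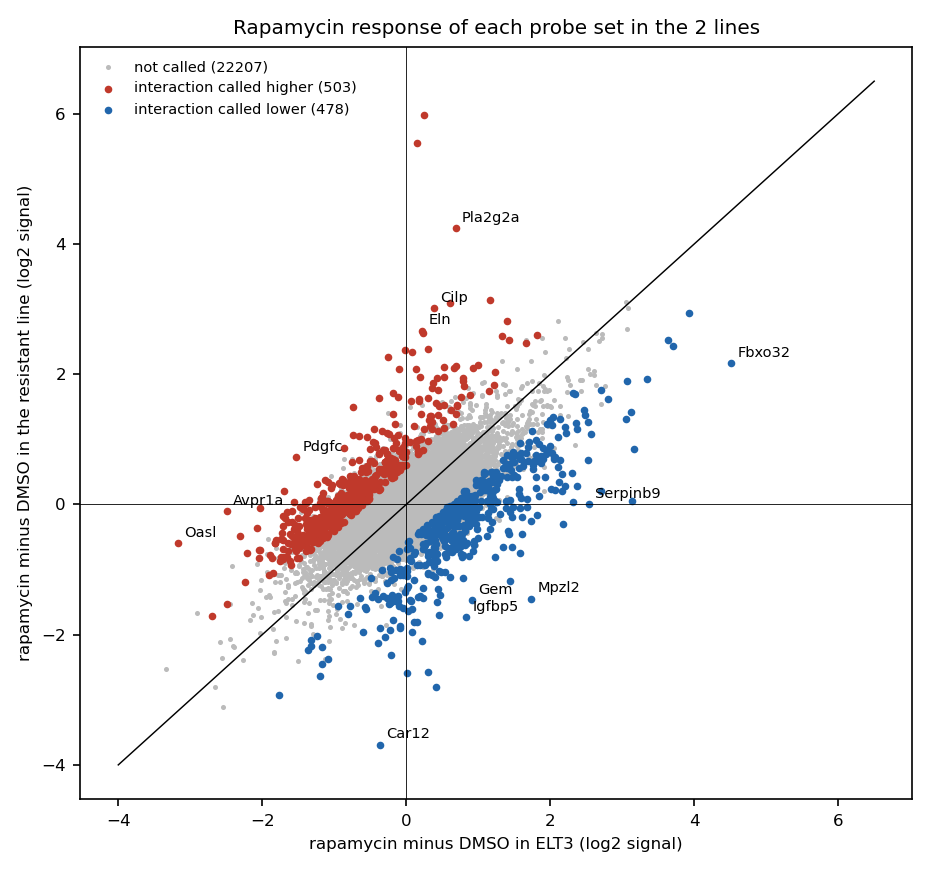
Each point is 1 of the 23188 probe sets, with its rapamycin response in ELT3 on the horizontal axis and that in ELT3-245 cells ("resistant line") on the vertical axis, both as log2 rapamycin minus DMSO, and the diagonal marks equal responses. The 503 red points were called higher and the 478 blue points lower for the difference between the responses; Oasl and Fbxo32 lie far from 0 on the ELT3 axis, while Pla2g2a and Car12 lie far from 0 on the ELT3-245 axis.

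Most of the 981 called probe sets changed more in ELT3. In 488 of them (49.7%) the response was called in ELT3 and not in ELT3-245 cells, in 212 (21.6%) in ELT3-245 cells and not in ELT3, in 139 in both lines in the same direction, in 30 in both lines in opposite directions, and in 112 in neither line by itself. The ELT3 response was the larger in absolute size for 673 (68.6%). Where a probe set was lowered in ELT3 and its response was not called in ELT3-245 cells (280 probe sets), the median response was -1.02 on the log2 scale in ELT3 and -0.09 in ELT3-245 cells. Where a probe set was raised in ELT3 and not called in ELT3-245 cells (208), the medians were 0.97 and -0.00. The opposite case, a change called in ELT3-245 cells and not in ELT3, was split evenly between 104 raised (medians 1.02 in ELT3-245 cells and -0.02 in ELT3) and 108 lowered (-1.11 and 0.06). A response that misses its threshold is not shown to be absent: with the fold threshold on the responses dropped, the same 981 probe sets held 462 called in ELT3, 224 in ELT3-245 cells, 217 in both in the same direction, 74 in opposite directions and 4 in neither. These groups were sorted by the same arrays that gave the calls, so their medians are descriptions.

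**Figure D2:**
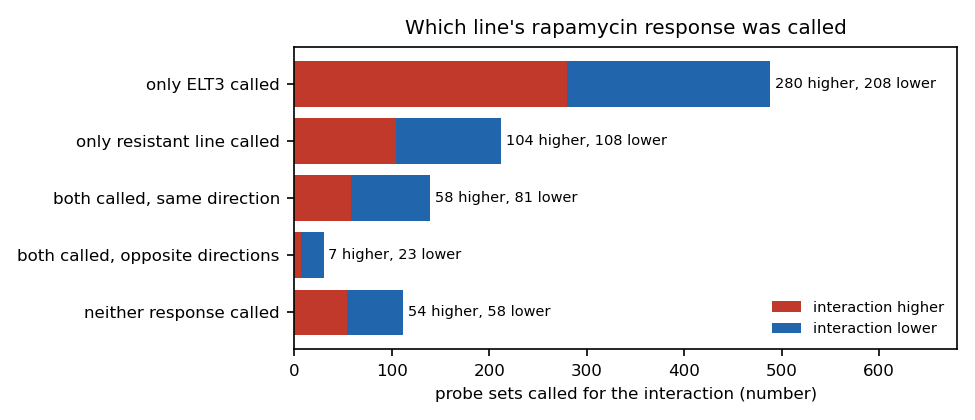
Bars count the 981 probe sets called for the difference between the responses, by which line's own rapamycin response was called, with red for a higher and blue for a lower difference. The longest bar is that of probe sets called in ELT3 and not in ELT3-245 cells, with 280 higher and 208 lower, and the shortest that of responses in opposite directions, with 7 and 23.

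The responses of the lines share no arrays, so each can be read in the line that was not used to choose the genes. Of the 1732 probe sets raised in ELT3, 766 (44.2%) were also called raised in ELT3-245 cells and 1500 had a response above 0 there, with a median of 0.85 in ELT3 and 0.53 in ELT3-245 cells. Of the 1960 lowered in ELT3, 653 (33.3%) were also called lowered and 1762 lay below 0, with medians of -0.83 and -0.44. Read the other way, 58.5% of the 1310 probe sets raised in ELT3-245 cells were also called raised in ELT3, with medians of 0.85 in ELT3-245 cells and 0.71 in ELT3, and 56.5% of the 1155 lowered were called lowered, with medians of -0.81 and -0.68. The value in the choosing line is enlarged by the choice in each case, and ELT3 had the larger number of calls to choose from. Over all 23188 probe sets the responses of the lines correlated at 0.578 (Pearson's r, a description across probe sets, which are not independent).

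Pla2g2a, which encodes a secreted phospholipase A2, had the largest positive difference among the named genes. On the ELT3 arrays Pla2g2a had signals of 4.21, 4.52 and 4.2 with DMSO and of 5.35, 4.79 and 4.85 with rapamycin. Those of ELT3-245 cells were 4.72, 4.01 and 4.76 and 8.77, 8.46 and 8.99 (log2 signal, probe set TC0500001759.rn.2, chromosome 5). The 3 rapamycin arrays of ELT3-245 cells stood apart from the other 9, and the ELT3 arrays in rapamycin lay above those in DMSO by less. Rapamycin raised Pla2g2a by 4.24 in ELT3-245 cells and by 0.69 in ELT3, a difference of responses of 3.55 (standard error 0.31, 11.7-fold, adjusted p = 0.000139 in limma). Cilp, which encodes a protein of the cartilage matrix, ranged over 9.79–10.33 on the rapamycin arrays of ELT3-245 cells and over 6.08–6.91, 6.53–6.99 and 6.55–7.2 in the other groups, with responses of 3.01 and 0.38 and a difference of responses of 2.63 (standard error 0.35, 6.2-fold, adjusted p = 0.00175 in limma). Eln read 6.28, 6.73 and 7.15 in DMSO and 6.92, 6.95 and 6.95 in rapamycin in ELT3. In ELT3-245 cells it read 8.45, 9.0 and 8.56 and 11.61, 11.58 and 10.82; the gene encodes elastin, the protein of elastic fibres. Only the ELT3-245 groups separated by treatment. This gave a difference of responses of 2.45 (standard error 0.35, 5.46-fold, adjusted p = 0.00287 in limma). Fst, which encodes follistatin, an extracellular antagonist of activins, read 8.33, 8.42 and 8.0 in DMSO and 10.6, 10.52 and 10.67 in rapamycin in ELT3-245 cells, while the ELT3 arrays overlapped at 4.78–5.37 and 4.93–5.27. Its responses of 2.34 and 0.08 gave a difference of responses of 2.26 (standard error 0.24, 4.8-fold, adjusted p = 0.000466 in limma). Slc14a1 (a urea transporter, 2.49), Map3k7cl (2.4), Tshr (the thyrotropin receptor, 2.38) and Aoc3 (a cell surface amine oxidase, 2.19) also rose in ELT3-245 cells, with responses of 3.1, 2.63, 2.37 and 2.09 there, and their responses were not called in ELT3. All ELT3 arrays of these genes, of Pla2g2a and of Fst lay below the median of all values (6.75). The group means of Pla2g2a, Slc14a1, Map3k7cl and Aoc3 reached that median only in ELT3-245 cells with rapamycin.

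Other genes with a large positive difference fell in ELT3. Avpr1a encodes a vasopressin receptor. In ELT3, Avpr1a had signals of 11.4, 11.6 and 11.66 with DMSO and of 8.92, 8.78 and 9.48 with rapamycin. The ELT3-245 arrays gave 14.37, 14.36 and 14.32 and 14.2, 14.21 and 14.35. The ELT3 groups were apart without overlap while those of ELT3-245 cells overlapped, which gave responses of -2.49 and -0.1 and a difference of responses of 2.39 (standard error 0.23, 5.26-fold, adjusted p = 0.000202 in limma). Its level in ELT3-245 cells was the higher in DMSO already, by 2.8, and by 5.19 in rapamycin. Pdgfc, a ligand of the platelet-derived growth factor receptors, fell from 9.3–9.42 to 7.71–7.91 in ELT3 and rose from 10.94–11.21 to 11.7–11.87 in ELT3-245 cells, with no overlap in either line, and a difference of responses of 2.26 (standard error 0.15, 4.8-fold, adjusted p = 4.33e-05 in limma). H2ac21, a histone H2A gene, moved the same way (-0.73 and 1.5, a difference of 2.24).

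Car12, which encodes a membrane-bound carbonic anhydrase, had the largest negative difference. Car12 read 4.42, 4.81 and 4.74 in DMSO and 4.04, 4.39 and 4.44 in rapamycin in ELT3. In ELT3-245 cells it read 8.81, 8.74 and 8.34 and 5.35, 4.89 and 4.58 (probe set TC0800000975.rn.2, chromosome 8). Rapamycin brought the ELT3-245 arrays from well above ELT3 down to near its level, where the ELT3 arrays overlapped between treatments. The responses were -3.69 in ELT3-245 cells and -0.36 in ELT3, a difference of responses of -3.33 (standard error 0.29, 10-fold, adjusted p = 0.00013 in limma), and all 6 ELT3 arrays lay under the median of all values (6.75), where a further fall is hard to read. Crispld2, a secreted protein gene, fell by 2.59 in ELT3-245 cells and read 4.82–5.35 and 4.92–5.39 in ELT3 (a difference of responses of -2.6, standard error 0.23, 6.06-fold, adjusted p = 0.00013 in limma), and the olfactory receptor gene Or2h15 had a similar course (-2.8 and 0.41, a difference of -3.21). All 6 ELT3 arrays of Crispld2 and of Or2h15 also lay under the median of all values. The group means of Car12 and Or2h15 reached that median only in ELT3-245 cells with DMSO (8.63 and 7.54). Igfbp5, a secreted binder of insulin-like growth factors, moved in opposite directions. In ELT3, Igfbp5 had signals of 9.31, 10.12 and 9.79 with DMSO and of 10.78, 10.56 and 10.38 with rapamycin. The ELT3-245 arrays gave 12.6, 12.47 and 12.52 and 10.64, 10.87 and 10.89. The groups did not overlap in either line, and the ELT3-245 level came down to that of ELT3 in rapamycin. The test gave a difference of responses of -2.56 (standard error 0.26, 5.9-fold, adjusted p = 0.0003 in limma).

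A further set of genes had a lower response in ELT3-245 cells and a rise in ELT3. Fbxo32 encodes atrogin-1, a ubiquitin ligase subunit and FoxO target known from muscle atrophy. Fbxo32 read 8.36, 8.11 and 8.2 in DMSO and 12.85, 12.57 and 12.8 in rapamycin in ELT3. In ELT3-245 cells it read 6.01, 6.34 and 5.98 and 8.51, 8.03 and 8.3. Both lines responded with no overlap, by 4.51 in ELT3, the largest rise of that line among the genes named here, and by 2.17 in ELT3-245 cells. The responses still gave a difference of responses of -2.35 (standard error 0.21, 5.09-fold, adjusted p = 0.000161 in limma). Serpinb9, an inhibitor of granzyme B, rose in ELT3 from 10.64–10.77 to 13.1–13.32 and overlapped at 7.88–8.13 and 7.77–8.16 in ELT3-245 cells. The fit gave a difference of responses of -2.53 (standard error 0.18, 5.77-fold, adjusted p = 5.22e-05 in limma). Prr15 (3.14 and 0.05 in ELT3 and ELT3-245 cells, a difference of -3.09), Chn2, which encodes a Rac GTPase-activating protein (2.18 and -0.3, -2.48), and the antiviral gene Oas1k (2.7 and 0.21, -2.49) followed the same course. All ELT3-245 arrays of Prr15, Chn2 and Oas1k lay below the median of all values (6.75). The group means of Prr15 and Chn2 reached that median only in ELT3 with rapamycin (8.31 and 7.89).

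**Figure D3:**
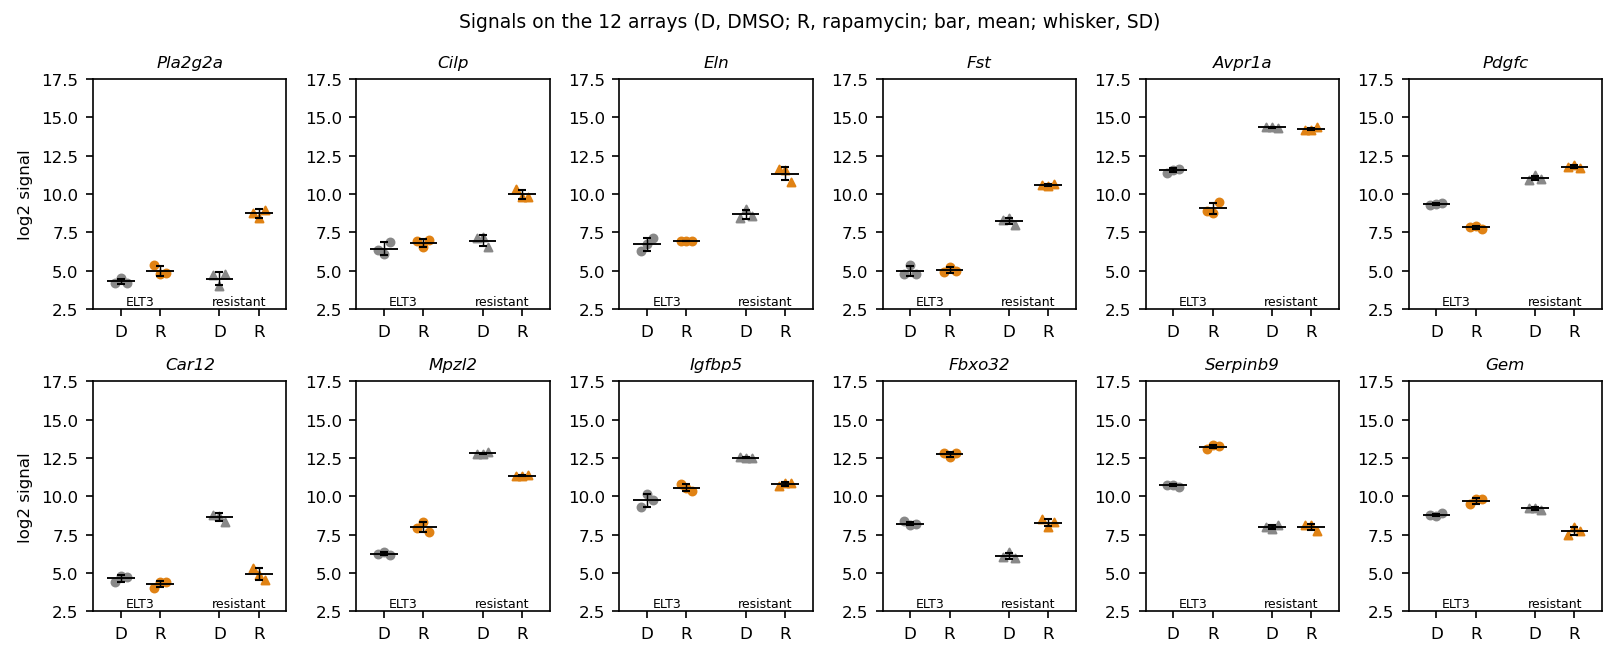
Log2 signals of 12 named genes on each of the 12 arrays, with circles for ELT3, triangles for ELT3-245 ("resistant"), grey for DMSO (D), orange for rapamycin (R), bars for group means and whiskers for the SD (n = 3 each). In the upper row the ELT3-245 rapamycin arrays of Pla2g2a, Cilp, Eln and Fst stand apart, while Avpr1a falls only in ELT3 and Pdgfc changes in opposite directions; in the lower row Car12 falls in ELT3-245 cells, Fbxo32 and Serpinb9 rise in ELT3, and Mpzl2, Igfbp5 and Gem rise in ELT3 and fall in ELT3-245 cells.

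In 30 probe sets rapamycin was called in both lines in opposite directions, 23 of them raised in ELT3 and lowered in ELT3-245 cells (19 named) and 7 the reverse (6 named). Mpzl2, which encodes an adhesion molecule of the immunoglobulin family, was the most distant. In ELT3, Mpzl2 had signals of 6.21, 6.37 and 6.2 with DMSO and of 7.96, 8.35 and 7.69 with rapamycin. The ELT3-245 arrays gave 12.77, 12.77 and 12.86 and 11.34, 11.34 and 11.38. The level in ELT3-245 cells stayed above that of ELT3 in both treatments while the gap narrowed from 6.54 to 3.35. That amounted to a difference of responses of -3.18 (standard error 0.21, 9.08-fold, adjusted p = 3.38e-05 in limma). Duoxa2, the maturation factor of a dual oxidase, went from 8.89–9.14 to 10.37–10.51 in ELT3 and from 7.77–8.19 to 6.66–7.14 in ELT3-245 cells (a difference of responses of -2.61, standard error 0.21, 6.09-fold, adjusted p = 9.87e-05 in limma). Gem, a small GTPase that inhibits calcium channels, rose from 8.75–8.89 to 9.48–9.83 and fell from 9.12–9.27 to 7.5–7.99 (a difference of responses of -2.37, standard error 0.2, 5.19-fold, adjusted p = 0.000113 in limma). Itga1, the collagen-binding integrin subunit, rose by 1.34 in ELT3 and fell by 0.65 in ELT3-245 cells (a difference of responses of -2.0, standard error 0.18, 3.99-fold, adjusted p = 0.000134 in limma). The 6 named genes of the reverse kind were Pdgfc, H2ac21, Irf7, Zfp772, Cxcl10 and Cxcl1, of which Zfp772 lies outside the rule for named genes and was picked here after its values were seen.

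The largest differences of all came from a pair of probe sets without a gene symbol, picked after their values were seen. TC0500004052.rn.2 (chromosome 5) read 6.39, 6.83 and 6.7 in DMSO and 12.88, 12.7 and 12.29 in rapamycin in ELT3-245 cells, against 4.53, 3.96 and 4.15 and 4.14, 4.45 and 4.79 in ELT3. The 3 arrays of rapamycin-treated ELT3-245 cells thus stood far above the other 9, a response of 5.98 (63-fold) against 0.25 in ELT3 and a difference of 5.73 (standard error 0.3, adjusted p = 5.67e-06 in limma). Only in that group did the mean of this probe set reach the median of all values (6.75). TC1000000671.rn.2 (chromosome 10) behaved alike, with responses of 5.55 and 0.15 and a difference of 5.41 (adjusted p = 5.49e-05 in limma). In all, 243 of the 981 called probe sets had no symbol and could not be placed in a gene group.

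Most genes of sterol and fatty acid synthesis, the SREBP targets that mTORC1 sustains, fell in each line, with close medians. Of 28 measured members of the list, 20 fell in ELT3 (median of all 28, -0.86) and 20 in ELT3-245 cells (-0.84), and the median difference of responses was -0.03, against -0.01 over all probe sets. An unadjusted p under 0.05 in limma was seen for 9 of the 28, against 4385 of all 23188 probe sets. The difference was called for 1 member (3.57%), beside 4.23% over all probe sets. Among probe sets that reached the median of all values in a group, as all 28 members did, 7.27% were called. Scd, the stearoyl-CoA desaturase, had responses of -2.13 and -1.7 in ELT3 and ELT3-245 cells, Mvd of -1.79 and -1.64, Sqle, the squalene epoxidase, of -1.09 and -1.08, and Insig1, the SREBP retention protein, of -0.91 and -0.91, all with differences that did not pass (adjusted p = 0.192, 0.756, 0.985 and 0.999 in limma). Fasn, the fatty acid synthase, fell in ELT3 and had responses of -1.5 and -0.62, a difference of 0.88 that did not pass either (adjusted p = 0.136). The 1 called member, Tm7sf2 (a sterol reductase), fell by 1.07 in ELT3-245 cells and read -0.01 in ELT3, with an adjusted p of 0.0312 that rose to at most 0.0771 without 1 array, the call being lost for any of 7 of the 12 arrays. The glycolysis and hypoxia list was alike in this respect, with a median response of -0.50 in each line and 2 of 28 members called for the difference, Ero1a (0.71) and Egln3 (-1.01, a call lost for 8 of the 12 arrays left out). Its share called, 7.14%, was near the 7.27% of probe sets that reached the median of all values in a group. In this list 9 of 28 had an unadjusted p under 0.05 in limma.

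Most genes of the lists for amino acid supply, nucleotides and ribosomes fell in ELT3, and the median response of each list was smaller in ELT3-245 cells. Of 34 measured ATF4 targets and tRNA synthetases, 29 fell in ELT3 and 20 in ELT3-245 cells (medians -1.20 and -0.84), beside 8.45% and 4.98% of all probe sets. The difference was above 0 for 30, and it was called higher for 6 and lower for 2. That share was 23.5%, beside 4.23% over all probe sets and 7.27% of those that reached the median of all values in a group. The 6 were Chac1, which degrades glutathione, the amino acid transporters Slc1a5, Slc7a5 and Slc6a9, and Psat1 and Mthfd2 of serine and folate metabolism. Slc1a5, the glutamine carrier, went from 10.76–10.97 to 8.93–9.42 in ELT3 and from 9.61–9.86 to 9.14–9.41 in ELT3-245 cells, without overlap in either line, and gave a difference of responses of 1.28 (standard error 0.2, 2.42-fold, adjusted p = 0.00469 in limma). Chac1 had responses of -1.59 and -0.27 (a difference of responses of 1.32, standard error 0.17, 2.5-fold, adjusted p = 0.00167 in limma). No tRNA synthetase of the list was called, with Nars1 at -1.44 and -1.27 and Aars1 at -1.33 and -1.1. Ddit4, which encodes the mTORC1 inhibitor REDD1, went the other way and fell more in ELT3-245 cells, from 10.66, 10.51 and 10.48 to 8.3, 8.11 and 8.12, than in ELT3, from 8.88, 9.2 and 8.58 to 7.45, 7.91 and 8.02 (a difference of responses of -1.28, standard error 0.25, 2.43-fold, adjusted p = 0.0146 in limma), and the lipoprotein receptor Vldlr was also lower (0.81 and -0.12). The number called higher was 3 without ELT3 DMSO replicate 2.

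Of 16 measured genes of purine and pyrimidine synthesis, 10 fell in ELT3 and 2 in ELT3-245 cells (medians -0.85 and -0.33). All 16 differences lay above 0 and 5 were called higher, those of Prps2, Mthfd1l, Adsl, Gart and Prps1. That share was 31.25%, beside 4.23% over all probe sets and 7.27% of those that reached the median of all values in a group. Of all probe sets, 8.45% fell in ELT3 and 4.98% in ELT3-245 cells. Prps2, which makes the ribose phosphate of nucleotides, read 12.36, 12.39 and 12.59 in DMSO and 10.91, 10.61 and 10.68 in rapamycin in ELT3 and 11.79, 11.91 and 11.85 and 11.37, 11.53 and 11.66 in ELT3-245 cells. The groups were apart in both lines, though the gap in ELT3-245 cells was the smaller and its response was not called. The lines thus showed a difference of responses of 1.38 (standard error 0.17, 2.61-fold, adjusted p = 0.00108 in limma). Cad, which starts pyrimidine synthesis, had responses of -0.92 and -0.2 and a difference of 0.72 that did not pass (adjusted p = 0.0588 in limma). Of 25 measured genes of ribosome biogenesis, 18 fell in ELT3 and 8 in ELT3-245 cells (medians -0.97 and -0.40), and 7 were called higher and 0 lower. The share called was 28%, beside the same 4.23% and 7.27%. An unadjusted p under 0.05 in limma was seen for 17 of the 25, against 4385 of all 23188 probe sets. The 7 were Nop2, Dkc1, Mybbp1a, Nop56, Polr1b, Gnl3 and Nolc1, factors of ribosomal RNA transcription and processing. Nop2, a ribosomal RNA methyltransferase, went from 13.77–14.09 to 11.84–12.58 in ELT3 and overlapped at 13.57–13.59 and 13.3–13.58 in ELT3-245 cells (a difference of responses of 1.53, standard error 0.24, 2.89-fold, adjusted p = 0.005 in limma). Mybbp1a had responses of -1.33 and -0.23 (a difference of responses of 1.1, standard error 0.18, 2.14-fold, adjusted p = 0.00613 in limma), while Npm1, nucleophosmin, had -0.34 and -0.23 and a difference of 0.11 (adjusted p = 0.717). The counts were sensitive to single arrays: without any 1 array other than ELT3 rapamycin replicate 1 or 3, between 1 and 2 nucleotide genes were called higher, and for 8 of the 12 arrays left out 3 or 4 ribosome genes were. Leaving out ELT3 rapamycin replicate 3, which stood apart, gave the smallest differences of Nop2 (1.32), Dkc1 (0.94), Mybbp1a (0.96), Mthfd1l (0.90) and Adsl (0.72). That of Prps2 was smallest without ELT3 DMSO replicate 3 (1.31).

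**Figure D4:**
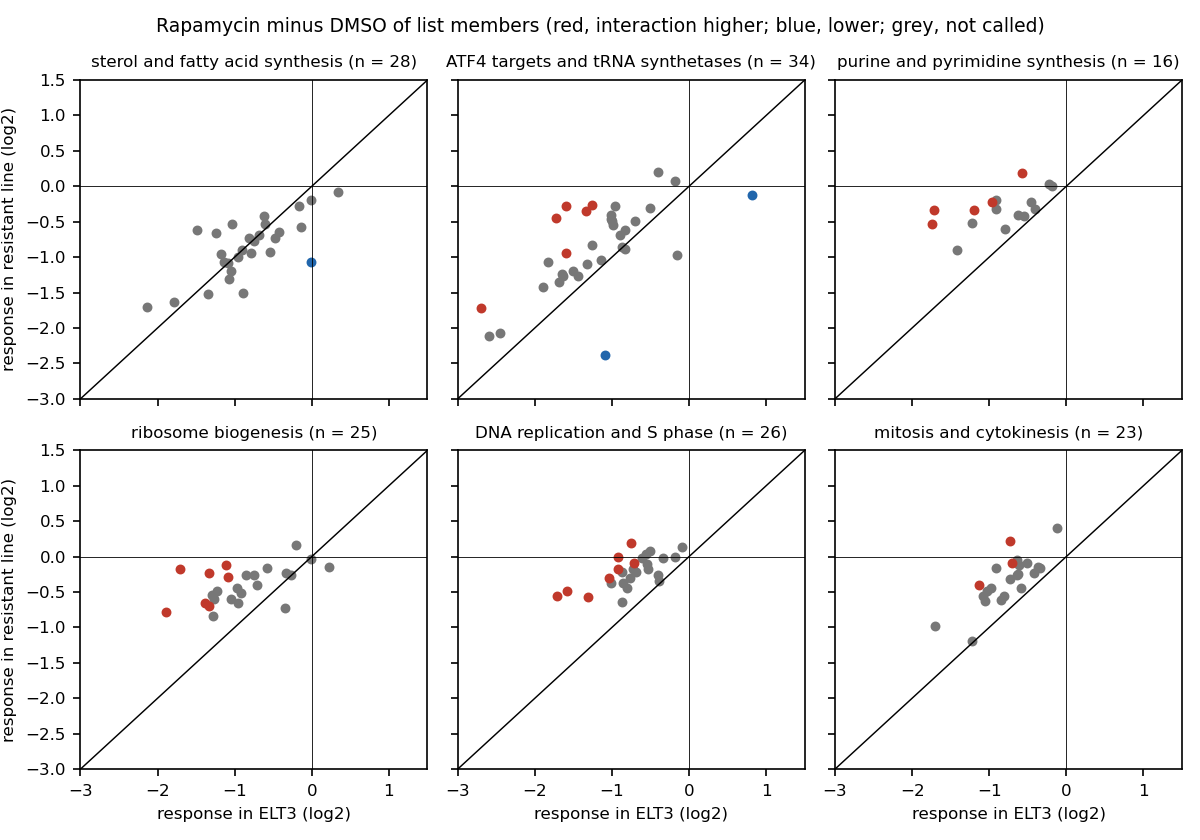
Each point is a measured gene of the list named above the panel, with its rapamycin response in ELT3 (horizontal) and in ELT3-245 cells ("resistant line", vertical) as log2 rapamycin minus DMSO, the diagonal marking equal responses, red and blue marking genes called higher and lower for the difference. Sterol and fatty acid genes lie on both sides of the diagonal (13 above and 15 below, differences from -1.05 to 0.88), while all 16 nucleotide, all 26 S phase and all 23 mitosis genes lie above it.

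Most genes of the S phase and mitosis lists fell in ELT3, and the median response of each list was smaller in ELT3-245 cells. Of 26 measured genes of DNA replication and S phase, 17 fell in ELT3 and 1 in ELT3-245 cells (medians -0.74 and -0.20), beside 8.45% and 4.98% of all probe sets. All 26 differences were above 0, and 8 were called higher: Orc1, Cdt1, Rfc3, Fen1, Cdc45, Cdc6, Chaf1b and Rrm1. That share was 30.8%, beside 4.23% over all probe sets and 7.27% of those that reached the median of all values in a group. Orc1, a subunit of the origin recognition complex, went from 9.59, 9.44 and 9.72 to 8.16, 7.71 and 7.76 in ELT3 and from 9.48, 9.2 and 9.32 to 8.88, 8.81 and 8.66 in ELT3-245 cells. The treatments did not overlap in either line and the response of ELT3-245 cells was not called. This gave a difference of responses of 1.16 (standard error 0.2, 2.23-fold, adjusted p = 0.00825 in limma). Fen1, a flap endonuclease of lagging strand synthesis, had responses of -0.92 and -0.00 and a difference of 0.92 (adjusted p = 0.0109 in limma), and Pcna, the replication clamp, -0.76 and -0.31 and 0.45 (adjusted p = 0.097). Of 23 measured mitosis genes, 18 fell in ELT3 and 4 in ELT3-245 cells (medians -0.73 and -0.26), again with all differences above 0, of which 3 were called: Aurkb (aurora kinase B, 0.95), Ccna2 (cyclin A2, 0.74) and Ect2 (0.6, a call lost for each of the 12 arrays left out). The share of mitosis genes called was 13.0%, beside the same 4.23% and 7.27%. Mki67, the proliferation marker, had responses of -0.64 and -0.05 and a difference of 0.59 (adjusted p = 0.0579), and Aurka of -1.23 and -1.19. Without 1 array, between 3 and 9 of the S phase genes were called, with 3 to 5 for 8 of the 12 arrays, and between 0 and 3 of the mitosis genes, with 0 or 1 for 8 of the 12. Leaving out ELT3 rapamycin replicate 3, which stood apart, gave the smallest differences of Aurkb (0.79) and Ccna2 (0.67). Those of Orc1, Cdt1, Rfc3 and Ect2 were smallest without other arrays.

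Among the 17 measured G1 cyclins, kinases and inhibitors, 5 were called higher and 1 lower. That share was 35.3%, beside 4.23% over all probe sets and 7.27% of those that reached the median of all values in a group. Cdkn1a, which encodes the CDK inhibitor p21, rose in ELT3-245 cells from 12.17, 12.23 and 12.05 to 12.98, 13.11 and 13.07 and read 12.41, 12.39 and 12.42 and 12.56, 12.46 and 12.62 in ELT3. The ELT3 groups were close and those of ELT3-245 cells apart, with responses of 0.14 and 0.9 in ELT3 and ELT3-245 cells and a difference of responses of 0.76 (standard error 0.14, 1.7-fold, adjusted p = 0.0104 in limma). Cdkn2d, the inhibitor p19, fell by 0.99 in ELT3 and read 0.04 in ELT3-245 cells (a difference of responses of 1.04, standard error 0.2, 2.05-fold, adjusted p = 0.0132 in limma). The genes called higher thus held 2 inhibitors beside the kinase gene Cdk2 (responses of -1.11 and -0.45) and the cyclins Ccnd1 (0.3 and 0.97) and Ccne2 (-0.08 and 0.54). Cdkn2b, the inhibitor p15, was called lower, with a rise of 0.95 in ELT3 and of 0.07 in ELT3-245 cells that did not pass, and its call was lost without ELT3 DMSO replicate 1 or 2, ELT3-245 DMSO replicate 1 or ELT3-245 rapamycin replicate 2 or 3 (adjusted p of up to 0.0594). The call of Ccne2 was lost for 4 of the 12 arrays, and the number called higher was 3 without ELT3-245 rapamycin replicate 1.

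Of 23 measured FoxO targets and genes of insulin receptor signalling, 10 rose and 3 fell in ELT3, and 9 rose and 3 fell in ELT3-245 cells (medians 0.52 and 0.53). The difference of responses was called higher for 1 and lower for 4. That share was 21.7%, beside 4.23% over all probe sets and 7.27% of those that reached the median of all values in a group. Beside Fbxo32, the lower ones were Sesn3, Irs1 and Irs2. Sesn3, a sestrin that restrains mTORC1, read 11.51, 11.66 and 11.46 in DMSO and 12.72, 12.75 and 12.64 in rapamycin in ELT3 and 11.6, 11.77 and 11.56 and 11.26, 11.24 and 11.29 in ELT3-245 cells. It rose in ELT3 only, and in ELT3-245 cells all 3 rapamycin arrays lay below the DMSO arrays by an amount under 1.5-fold. The test gave a difference of responses of -1.55 (standard error 0.14, 2.93-fold, adjusted p = 0.000173 in limma). Irs1, the adaptor of the insulin and IGF-1 receptors, rose in both lines, from 7.01–7.13 to 8.78–9.16 and from 7.49–7.71 to 8.21–8.43 (a difference of responses of -1.21, standard error 0.17, 2.31-fold, adjusted p = 0.00285 in limma), and Irs2 had responses of 1.96 and 1.24. Igf1r, the IGF-1 receptor, rose by 2.25 and 1.91, a difference of -0.34 that did not pass (adjusted p = 0.399 in limma). Txnip, an inhibitor of thioredoxin and glucose uptake, was higher (1.82 and 2.6, a difference of 0.79), a call that was lost for 8 of the 12 arrays left out. Of 27 measured components of the mTOR pathway itself, 1 was called (3.7%, beside 4.23% over all probe sets and 7.27% of those that reached the median of all values in a group). It was Pik3r3, a regulatory subunit of PI3 kinase (0.78 and -0.55, a difference of responses of -1.33, standard error 0.21, 2.51-fold, adjusted p = 0.00507 in limma), and Mtor itself had responses of -0.04 and 0.45.

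Of 32 measured lysosome and autophagy genes, 26 had a difference below 0 (median -0.32), and 3 were called lower and 0 higher. The share called was 9.38%, beside 7.27% over probe sets that reached the median of all values in a group. An unadjusted p under 0.05 in limma was seen for 19 of the 32, against 4385 of all 23188 probe sets. Rragd, a Rag GTPase that brings mTORC1 to the lysosome and a TFEB target, read 6.61, 6.63 and 6.31 in DMSO and 4.74, 5.08 and 5.21 in rapamycin in ELT3-245 cells and 5.57, 5.67 and 5.43 and 5.35, 5.26 and 5.39 in ELT3. It fell in ELT3-245 cells by 1.51, with a difference of responses of -1.28 (standard error 0.2, 2.43-fold, adjusted p = 0.00437 in limma), though all its signals lay below the median of all values. Gpnmb, a glycoprotein of lysosomes and melanosomes, went from 12.67–12.85 to 13.02–13.26 in ELT3 and from 12.87–12.99 to 12.02–12.09 in ELT3-245 cells (a difference of responses of -1.23, standard error 0.15, 2.34-fold, adjusted p = 0.00098 in limma), and Ctsd, cathepsin D, rose by 0.73 in ELT3 against 0.02 in ELT3-245 cells (a difference of responses of -0.71, standard error 0.14, 1.64-fold, adjusted p = 0.0137 in limma). Npc1, a cholesterol exporter of the lysosome, fell alike in both lines (-1.59 and -1.54).

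Among interferon-induced genes, the antiviral genes Oasl, Ifit3 and Rsad2 fell in ELT3 and were not called in ELT3-245 cells, while Irf7 and Cxcl10 moved in opposite directions. Interferons act through STAT and IRF factors on a DNA element, the interferon-stimulated response element (ISRE), before antiviral genes such as those of the Oas, Ifit and Gbp families. Of 29 measured genes of the list, 9 fell and 3 rose in ELT3, and 3 fell and 5 rose in ELT3-245 cells. The difference was called higher for 6 and lower for 1 (24.1%, beside 4.23% over all probe sets). The 6 were Oasl, Irf7, Cxcl10, Ifit3, Gbp5 and Rsad2. Oasl, a gene of the antiviral oligoadenylate synthetase family, had the largest difference of the 6. Oasl read 11.19, 11.34 and 11.24 in DMSO and 8.5, 7.75 and 7.99 in rapamycin in ELT3. In ELT3-245 cells it read 7.81, 8.0 and 7.32 and 7.16, 7.0 and 7.17. ELT3 in DMSO stood alone at the top, and rapamycin brought it to near the level of ELT3-245 cells. The fit gave a difference of responses of 2.58 (standard error 0.28, 5.97-fold, adjusted p = 0.000475 in limma). Irf7, the transcription factor that amplifies interferon expression, and Cxcl10, a chemokine for T cells, were called in both lines. Irf7 read 6.88, 7.53 and 7.91 and 6.73, 6.89 and 6.49 in ELT3, where 1 DMSO array lay within the rapamycin arrays, and 6.42, 6.67 and 6.65 and 7.63, 7.6 and 7.71 in ELT3-245 cells, where the groups were apart (a difference of responses of 1.79, standard error 0.3, 3.47-fold, adjusted p = 0.00681 in limma). In ELT3, Cxcl10 had signals of 14.28, 14.35 and 14.26 with DMSO and of 13.46, 13.7 and 13.75 with rapamycin. The ELT3-245 arrays gave 11.96, 12.18 and 11.94 and 13.04, 12.92 and 13.26. It fell in ELT3 and rose in ELT3-245 cells without overlap. That amounted to a difference of responses of 1.71 (standard error 0.18, 3.26-fold, adjusted p = 0.000339 in limma). Ifit3 (-1.25 and 0.31), Gbp5 (-0.27 and 1.09) and Rsad2 (-1.07 and 0.04) had differences of 1.56, 1.37 and 1.11.

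Other members did not follow. Usp18, which restrains interferon signalling, fell in both lines (-1.68 and -1.48), Gbp2 rose in both (1.0 and 1.01), Mx1 read -0.28 and -0.23, and Isg15, at -1.41 and -0.02, had a difference of 1.39 that did not pass (adjusted p = 0.193 in limma). B2m, a light chain of antigen presentation, was the 1 member called lower (0.83 and 0.21), and lost the call for 10 of the 12 arrays left out. Oas1k, which was not in the list, went against Oasl of the same family: its signal rose in ELT3 from 8.24, 8.31 and 8.26 to 10.84, 11.02 and 11.06 and stayed at 5.75–6.13 and 5.87–6.42 in ELT3-245 cells (a difference of responses of -2.49, standard error 0.21, 5.63-fold, adjusted p = 0.000113 in limma). Rat Oas1 genes are near copies of each other, so a probe set of one may take up signal from another.

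The promoters of the 6 interferon genes called higher are of use beside these values, since the ISRE is the best known element of this gene group. In the 250 bases before the start site in RefSeq (GRCr8), an ISRE of 2 TTTC runs with 2 free bases between them, searched on both strands and chosen after the values were seen, was found in 5 of the 6 (Irf7, Ifit3, Rsad2, Gbp5 and Cxcl10, not Oasl), in 15 of the 24 measured list members with a window, and in 3.41% of all 33469 windows. The list was drawn up for interferon genes, so a high share is a property of the list and not of the difference between the lines. Irf7, Cxcl10 and Ifit3 are printed as the genes with and without an opposite response, and Oasl for its lack of a match, 5′ to 3′ on the gene's strand, with the match in capitals (on Cxcl10 it lies on the other strand), at chr1:205800024-205800273 (minus strand), chr14:15988816-15989065 (plus), chr1:241527076-241527325 (plus) and chr12:47356293-47356542 (minus).
Irf7: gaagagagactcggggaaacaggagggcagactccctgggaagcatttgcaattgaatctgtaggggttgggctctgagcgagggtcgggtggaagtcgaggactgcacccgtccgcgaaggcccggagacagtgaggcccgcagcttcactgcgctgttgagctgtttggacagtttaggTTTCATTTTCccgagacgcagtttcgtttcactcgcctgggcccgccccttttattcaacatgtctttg
Cxcl10: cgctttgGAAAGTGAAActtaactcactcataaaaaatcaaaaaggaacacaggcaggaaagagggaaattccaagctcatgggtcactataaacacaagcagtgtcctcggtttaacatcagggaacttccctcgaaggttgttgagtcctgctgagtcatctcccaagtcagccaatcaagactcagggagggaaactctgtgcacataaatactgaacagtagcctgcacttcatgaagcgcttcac
Ifit3: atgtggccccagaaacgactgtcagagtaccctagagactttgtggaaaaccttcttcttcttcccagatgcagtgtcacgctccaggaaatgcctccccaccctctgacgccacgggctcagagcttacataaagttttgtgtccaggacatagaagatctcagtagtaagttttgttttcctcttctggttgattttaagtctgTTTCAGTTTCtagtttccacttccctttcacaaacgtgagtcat
Oasl: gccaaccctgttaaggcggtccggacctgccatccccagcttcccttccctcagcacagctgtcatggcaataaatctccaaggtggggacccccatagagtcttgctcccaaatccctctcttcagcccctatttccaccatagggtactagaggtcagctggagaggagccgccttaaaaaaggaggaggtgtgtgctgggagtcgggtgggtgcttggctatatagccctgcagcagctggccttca
The match begins 69 bases before the start of Irf7, 44 before that of Ifit3 and 243 before that of Cxcl10. Among the 24 genes with the largest differences, 13 had a window, of which 0 held the AP-1 letters TGANTCA (6.34% of all windows), the E-box CACGTG (5.59%), the sterol element TCACNCCAC (0.974%) or the C/EBP-ATF element TGATGNAA (3.40%), and 1 held the TCF/LEF letters CTTTGA (13.9%). No match says only that these letters are not in these windows.

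**Figure D5:**
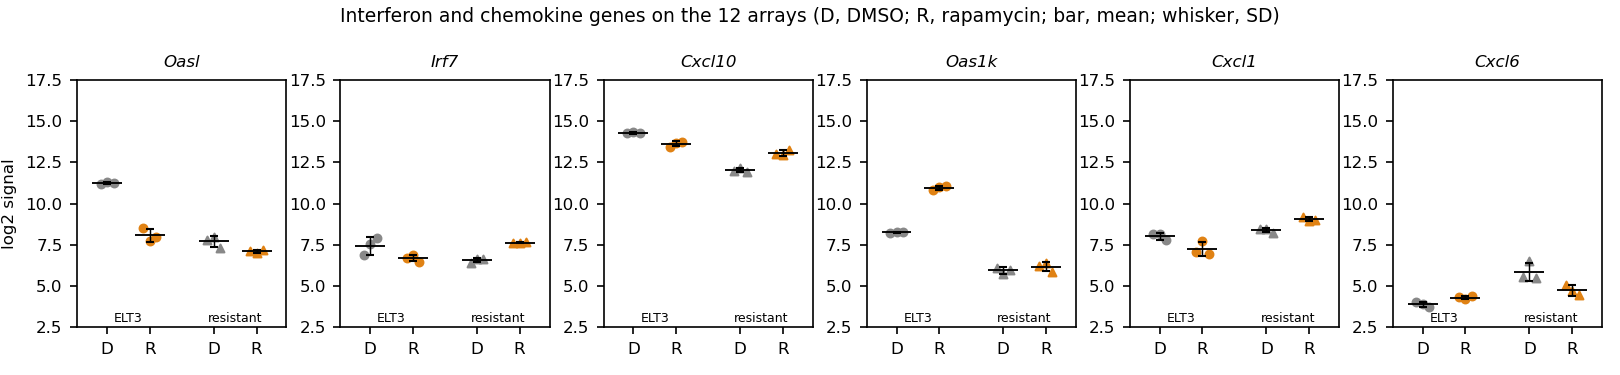
Log2 signals of 4 interferon-induced genes and the chemokine genes Cxcl1 and Cxcl6 on the 12 arrays, with circles for ELT3, triangles for ELT3-245 ("resistant"), grey for DMSO (D), orange for rapamycin (R), bars for means and whiskers for the SD (n = 3 each). Oasl falls in ELT3 while Oas1k rises there, and Irf7, Cxcl10 and Cxcl1 fall in ELT3 and rise in ELT3-245 cells.

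Of 28 measured chemokine and cytokine genes, 6 were called higher (Cxcl1, Il1rn, Ccl2, Icam1, Cxcl12 and Csf1) and 1 lower (Cxcl6), and 15 differences lay above 0 and 13 below. The share called was 25%, beside 4.23% over all probe sets. Cxcl1, a chemokine for neutrophils, read 8.15, 8.14 and 7.78 in DMSO and 7.09, 7.74 and 6.97 in rapamycin in ELT3 and 8.46, 8.49 and 8.24 and 9.18, 8.97 and 8.98 in ELT3-245 cells. It fell in the former and rose in the latter, without overlap. The lines thus showed a difference of responses of 1.41 (standard error 0.27, 2.65-fold, adjusted p = 0.0132 in limma). Ccl2, a chemokine for monocytes, had responses of -0.88 and 0.3 and a difference of 1.19 (adjusted p = 0.00995 in limma), Cxcl12 rose by 1.52 in ELT3-245 cells and read 0.53 in ELT3, and Il1rn, the interleukin-1 receptor antagonist, had -1.35 and 0.07, with a call lost for 6 of the 12 arrays left out. Ptgs2, the inducible cyclooxygenase, rose alike (1.83 and 1.75), and Tnf read -0.02 and 0.05. The number called higher was 2 without ELT3 DMSO replicate 2 or ELT3-245 DMSO replicate 1 and 3 without ELT3-245 DMSO replicate 3 or ELT3-245 rapamycin replicate 1 or 3. Cxcl6 lost its call for 7 of the 12 arrays, at a signal below the median of all values on every array.

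Of 23 measured smooth muscle genes, 11 rose in ELT3 and 7 in ELT3-245 cells (medians 0.52 and 0.40), with 0 called lowered in either line. The difference of responses was called for 6, with 5 lower (Itga8, Actg2, Synpo2, Acta2 and Cald1) and 1 higher (Tagln). The share called was 26.1%, beside 4.23% over all probe sets. Actg2 read 8.44, 8.34 and 8.32 in DMSO and 10.97, 10.68 and 10.35 in rapamycin in ELT3. In ELT3-245 cells it read 7.5, 7.59 and 7.27 and 8.01, 7.99 and 7.79; the gene encodes smooth muscle gamma actin. Both lines were apart between treatments, and the rise in ELT3-245 cells was under 1.5-fold. This gave a difference of responses of -1.82 (standard error 0.21, 3.52-fold, adjusted p = 0.000852 in limma). Itga8, an integrin subunit of smooth muscle, had responses of 2.53 and 0.68 (a difference of responses of -1.84, standard error 0.22, 3.59-fold, adjusted p = 0.000902 in limma), and Acta2, smooth muscle alpha actin, of 1.57 and 0.55 (a difference of responses of -1.02, standard error 0.16, 2.02-fold, adjusted p = 0.0044 in limma). Tagln, which encodes transgelin, rose in both lines, from 14.75–14.84 to 16.42–16.49 and from 11.63–11.77 to 14.13–14.2. Its log2 difference of 0.81 turned direction on the linear scale, where ELT3 gained more signal, and so did those of Inhba (1.43 and 2.53) and Synpo2 (3.05 and 1.3), genes whose levels in DMSO differ between the lines. Over all 981 called probe sets the direction was the same on the linear scale for 950 (96.8%). Of the defining genes, Acta2 and Des (desmin) were high in all groups, with means of 14.43 to 16.66 and 15.70 to 16.73, whereas Myh11, smooth muscle myosin, stayed at 4.49 to 4.91 and Cnn1 at 5.71 to 6.98.

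Genes of the extracellular matrix were called in both directions. Of 29 measured matrix genes and receptors, 5 were called higher (Eln, Tnc, Itga6, Fbn1 and Thbs1) and 2 lower (Itga1 and Spp1). The share called was 24.1%, beside 4.23% over all probe sets and 7.27% of those that reached the median of all values in a group. Tnc, which encodes tenascin C, fell in ELT3 from 11.67, 11.81 and 12 to 10.18, 10.07 and 10.15 and lay low in ELT3-245 cells throughout, at 5.11–6.43 and 5.89–6.28, below the median of all values (a difference of responses of 1.89, standard error 0.37, 3.71-fold, adjusted p = 0.0149 in limma). Itga6, the laminin-binding integrin subunit, rose by 1.59 in ELT3-245 cells and read 0.06 in ELT3 (difference 1.53, adjusted p = 0.000328 in limma). Of 27 measured proteases and inhibitors, 7 were called lower and 2 higher (33.3%, beside 4.23% over all probe sets). The lower ones included Plat, the tissue plasminogen activator, which rose in ELT3 from 14.45, 14.46 and 14.61 to 15.19, 15.26 and 15.38 and read 12.68, 12.69 and 12.65 in DMSO and 12.3, 12.17 and 12.17 in rapamycin in ELT3-245 cells. The treatments did not overlap in either line, and the responses of 0.77 and -0.46 gave a difference of responses of -1.23 (standard error 0.14, 2.34-fold, adjusted p = 0.000727 in limma). Mmp19 fell by 1.28 in ELT3-245 cells with 0.00 in ELT3, Mmp16 had 0.78 and -0.59, Mmp11 1.54 and 0.42, Mmp14 -0.44 and -1.36 and Adamts1 3.63 and 2.52. Timp3, an inhibitor of metalloproteinases, was called higher, with a fall of 1.49 in ELT3 and -0.33 in ELT3-245 cells. Without 1 array, 1 of the 2 protease genes called higher was lost for 9 of the 12 arrays, and Spp1 (osteopontin) lost its call for 9 as well. All signals of Mmp16 lay below the median of all values.

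Of 30 measured genes of tight junctions and polarity 1 was called, Ocln (3.33%), and of 29 of adherens junctions, desmosomes and keratins 1, Krt8 (3.45%), shares near the 4.23% called over all probe sets. Krt8, a keratin of simple epithelia, rose in ELT3 from 9.72, 9.35 and 9.71 to 11.88, 11.73 and 11.55 and read 5.83, 5.73 and 5.97 and 6.0, 6.42 and 6.13 in ELT3-245 cells. The 6 ELT3-245 arrays all lay below the median of all values (6.75), and the responses of 2.13 and 0.34 gave a difference of responses of -1.79 (standard error 0.21, 3.45-fold, adjusted p = 0.000846 in limma). Ocln had the same form, with responses of 1.74 and -0.26. Of 24 measured mesenchymal markers, Acta2 and Pdgfra were lower and Tagln higher. That share was 12.5%, beside 7.27% of probe sets that reached the median of all values in a group. Pdgfra rose in ELT3 and read 0.44 in ELT3-245 cells (response of ELT3 1.31, a difference of -0.87), where it started from a level 3.83 above that of ELT3, and its direction turned on the linear scale.

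Growth factor and signalling lists held called genes in both directions. Of 21 measured Wnt and β-catenin targets, 4 were called higher (Ccn4, Axin2, Fosl1 and Ccnd1) and 2 lower (Lef1 and Notum). The share called was 28.6%, beside 4.23% over all probe sets. Axin2, a feedback inhibitor of β-catenin, rose in ELT3-245 cells from 6.84, 7.09 and 7.2 to 8.29, 8.51 and 9.0 and read 9.45, 9.48 and 9.43 and 9.85, 9.85 and 9.87 in ELT3, at a higher level. The treatments were apart in both lines, though by under 1.5-fold in ELT3. The test gave a difference of responses of 1.15 (standard error 0.23, 2.22-fold, adjusted p = 0.017 in limma). Lef1, a nuclear partner of β-catenin, went the other way and rose more in ELT3, from 8.79–9.21 to 11.43–11.62, than in ELT3-245 cells, from 7.79–8.61 to 9.15–9.45 (a difference of responses of -1.49, standard error 0.27, 2.81-fold, adjusted p = 0.0108 in limma). Of 40 measured Wnt ligands, receptors and antagonists, the antagonists Sfrp4 (2.07 and 0.22, a difference of responses of -1.85, standard error 0.19, 3.59-fold, adjusted p = 0.000301 in limma) and Dkk3 (1.77 and 0.55, a difference of -1.22) were lower, both with rises in ELT3, and Wnt10b and Rspo1 higher, with 2 such calls kept for 1 of the 12 arrays left out (ELT3 rapamycin replicate 3). Of 29 TGF-β, BMP and YAP genes, Fst, Inhba, Ajuba and Tgfb3 were higher and Ankrd1, a YAP target, lower. The shares called were 10% of the Wnt ligand, receptor and antagonist list and 17.2% of the TGF-β, BMP and YAP list. Ankrd1 rose from 6.41–6.72 to 7.54–7.67 in ELT3 and ranged over 7.95–8.27 in DMSO and over 7.49–7.61 in rapamycin in ELT3-245 cells, a response under 1.5-fold (a difference of responses of -1.52, standard error 0.18, 2.88-fold, adjusted p = 0.000727 in limma).

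Of 13 measured ErbB receptors and ligands, 2 were called higher and 2 lower (30.8%, beside 4.23% over all probe sets). Tgfa, a ligand of EGFR, rose in both lines, from 13.36, 13.24 and 13.43 to 14.2, 14.08 and 14.12 in ELT3 and from 12.96, 12.55 and 12.95 to 14.83, 14.68 and 14.79 in ELT3-245 cells. The rise was the larger in ELT3-245 cells. The fit gave a difference of responses of 1.16 (standard error 0.18, 2.23-fold, adjusted p = 0.00437 in limma). The call of Areg, another EGFR ligand (1.48), was lost for 8 of the 12 arrays left out and that of Erbb2 (-0.69) for 11. Of 19 measured ERK feedback genes, 3 were called lower, Dusp14 (0.84 and -0.59, a difference of responses of -1.43, standard error 0.21, 2.7-fold, adjusted p = 0.00357 in limma), Mapk3 and Dusp10, of which the last 2 lost the call without ELT3 DMSO replicate 2 or ELT3-245 rapamycin replicate 1 or 2, and Mapk3 also without ELT3-245 DMSO replicate 1 (adjusted p of up to 0.0575 and 0.0582). The share of ERK feedback genes called was 15.8%, beside 4.23% over all probe sets. Of 26 immediate early and AP-1 genes, 13 rose in ELT3-245 cells and 12 in ELT3 (medians 0.85 and 0.13). The difference was called higher for 2 (7.69%), near the 7.27% of probe sets that reached the median of all values in a group. They were Fosl1 (-0.58 and 0.23, a difference of responses of 0.82, standard error 0.16, 1.76-fold, adjusted p = 0.0153 in limma) and Jund (0.88), whose call was lost for 6 of the 12 arrays left out, with an adjusted p of up to 0.065.

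The genes with the strongest response in both lines together show what a shared response looked like. Dusp6, the phosphatase that limits ERK, read 12.35, 12.37 and 12.6 and 15.02, 15.2 and 15.02 in ELT3 and 12.48, 12.31 and 12.55 and 15.07, 15.17 and 15.002 in ELT3-245 cells. The arrays of a treatment overlapped between the lines, and the responses of 2.64 and 2.63 differed by -0.01 (95% interval -0.36 to 0.35). Mgp, a matrix inhibitor of calcification (3.05 and 3.12, interval -0.51 to 0.63), St6gal1, a sialyltransferase (3.08 and 3.02, -0.76 to 0.63), Olah (3.06 and 2.69, -0.98 to 0.24) and the CSF-1 receptor Csf1r (-2.65 and -2.81, -1.12 to 0.81) had intervals that include 0 and leave room for differences of up to 1.12 in the widest case. These genes were chosen for like responses, so the closeness is a description. Tcp11l2, also chosen so, rose in both lines (3.92 and 2.94) and was still called lower (-0.99, adjusted p = 0.0296 in limma), a call lost for 9 of the 12 arrays left out.

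In the remaining lists, p53 and stress targets gave 2 higher and 1 lower of 18, among them Tp53inp1, which rose in ELT3 from 8.84–9.38 to 10.52–10.65 and ranged over 10.28–10.47 and over 10.14–10.34 in DMSO and rapamycin in ELT3-245 cells, which overlapped (a difference of responses of -1.67, standard error 0.19, 3.18-fold, adjusted p = 0.000751 in limma). The call of Aen, the higher one beside Cdkn1a, was lost for 9 of the 12 arrays left out. The share of p53 and stress targets called was 16.7%, beside 4.23% over all probe sets. NRF2 antioxidant and iron genes gave 2 lower of 23, the metallothionein Mt1 (-0.15 and -1.48) and the extracellular glutathione peroxidase Gpx3 (1.21 and 0.05). That share, 8.7%, was near the 7.27% of probe sets that reached the median of all values in a group. No gene of 20 ER chaperones and unfolded protein response genes was called by limma, and 1 was called with an intensity trend. An unadjusted p under 0.05 in limma was seen for 6, against 4385 of all 23188 probe sets. Of the genes the study tabulated from these arrays, a list that is not independent of them, 7 of 32 were called (4 higher, 3 lower), with 2 higher without ELT3 DMSO replicate 1, ELT3-245 DMSO replicate 1 or ELT3-245 rapamycin replicate 1 or 2. The median difference of responses was -0.01 over all probe sets and 0.04 over the 12330 that reached the median of all values in a group. Beside these, the median difference of responses was 0.39 for ATF4 targets, 0.55 for nucleotide synthesis, 0.49 for ribosome biogenesis, 0.57 for S phase and 0.43 for mitosis. It was 0.43 for cyclins and inhibitors, 0.35 for TGF-β, BMP and YAP genes, 0.34 for immediate early genes, 0.31 for interferon genes and 0.24 for Wnt targets. It was -0.34 for FoxO targets, -0.29 for tight junctions, -0.15 for proteases and inhibitors, -0.14 for smooth muscle genes, -0.13 for ERK feedback genes and -0.13 for macrophage markers. The medians of the other lists lay nearer to 0, at -0.1 for mesenchymal markers, -0.09 for Wnt ligands, 0.08 for chemokines, 0.07 for matrix genes, -0.05 for NRF2 genes, -0.05 for endothelial markers, -0.03 for the mTOR pathway, 0.03 for glycolysis, -0.02 for adherens junctions and keratins, 0.02 for ErbB genes and 0.00 for p53 targets, beside 0.17 for ER chaperones and 0.1 for the tabulated genes.

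Of 8135 probe sets without a symbol, 243 were called. Called differences lay mostly in expressed genes: 775 of the 981 (79.0%) had neither line below the median of all values in both treatments, against 49.2% of all probe sets, while 85 had both lines below it. The probe set of Tsc2 gave signal in all groups (means of 9.54 to 10.57 on the log2 scale), which the array cannot tell from a transcript without function, and Tsc2 had responses of 1.03 in ELT3, where it was called, and 0.42 in ELT3-245 cells, a difference of -0.61 that did not pass (adjusted p = 0.24 in limma). Of 15 macrophage and leukocyte markers, 3 to 5 reached the median of all values in a group, and Ptprc stayed at 4.06 to 4.33 and Adgre1 at 4.48 to 4.65. The summed linear signal rose in rapamycin in both lines, from 5859–6888 to 14634–17691 in ELT3 and from 6068–6302 to 12214–15024 in ELT3-245 cells. Most members did not rise: 7 responses lay above 0 and 8 below in ELT3 (median -0.07). In ELT3-245 cells 3 lay above and 12 below (median -0.17). Of these markers Cd68, a lysosomal membrane protein, was called lower (0.55 and -0.81). That was 6.67% of the list, beside 4.23% over all probe sets. Of 12 endothelial markers 0 were called, and 1 was called with an intensity trend. An unadjusted p under 0.05 in limma was seen for 3 of them, against 4385 of all 23188 probe sets. Cdh5 was at 4.50 to 4.67, while Kdr, a VEGF receptor, was at 13.50 and 11.67 in ELT3-245 cells in DMSO and rapamycin and at 6.27 and 5.42 in ELT3. The part of other cell types in the differences was not tested, and in such bulk samples fewer cells of a type and less RNA per cell cannot be told apart.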

How the data were processed

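RNA of the 4 groups (ELT3 and ELT3-245, DMSO or rapamycin, 3 samples each) was hybridised to 1-colour rat Clariom S arrays. The authors normalized the scans with RMA (version not given in the sources used here) and deposited 1 log2 value per probe set and array, from 2.56 to 18.56. RMA makes array distributions alike, so a shift common to all genes is not measured, and the number of arrays limits the precision. Of 23188 probe sets, 15049 had a symbol in the platform table and 4 more through probe sets listed with the study, 8135 had none, and for 10 symbols with several probe sets the brightest stood for the gene. Each chromosome was read from the name of the probe set, which matched RefSeq for 99.5% of 14834.

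The 4 group means were fitted over 12 arrays without covariates (limma 3.58.1 in R 4.3.3, 8 residual and 3.91 prior degrees of freedom, eBayes, Benjamini-Hochberg over all probe sets), tested on simulated data, and summarised in Python 3.11.15 (pandas 2.3.3, NumPy 2.4.6, Matplotlib 3.10.9). The simulation changed 200 probe sets, gave all others no difference and used normal noise. In it 19.4% of true log2 differences of 0.8, 94.0% of 1.5 and 100% of 3.0 were called. Small differences can thus be missed in that setting. The arrays themselves gave 981 calls, and the adjusted p depends on how many probe sets differ, so these shares need not hold for them. Named genes were the 12 called genes with the largest difference in each direction that reached the median of all values in a group, the 3 largest called members of each of 31 gene lists, the called genes of the study's tabulated list, and the 6 genes with the largest response shared by both lines. Other list members are given as examples. The comparison, the members and the lists were chosen with earlier results of these data known. Alternatives were other scalings, moderation, weights, filters and thresholds, a replicate block and leaving out each array. The main fit did not pair samples by replicate number (the values are in the closing section).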

Additional observations from a re-analysis of the deposited data

Results flagged for a closer look

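The responses of the lines differed in limma's test of the difference itself (response of ELT3-245 cells minus response of ELT3, log2) for 981 probe sets and for each gene given here, with no explanation weighed. The higher differences were Pla2g2a 3.55, Cilp 2.63, Oasl 2.58, Slc14a1 2.49, Eln 2.45, Map3k7cl 2.402, Avpr1a 2.39, Tshr 2.38 and Fst 2.26. Also higher were Pdgfc 2.26, H2ac21 2.24, Aoc3 2.19, Tnc 1.89, Irf7 1.79, Cxcl10 1.71, Nop2 1.53, Cxcl1 1.41 and Prps2 1.38. Further higher values were Chac1 1.32, Slc1a5 1.28, Ccn4 1.17, Orc1 1.16, Tgfa 1.16, Axin2 1.15, Inhba 1.098, Mybbp1a 1.096 and Cdkn2d 1.04. Others above 0 were Fosl1 0.82, Tagln 0.81, Cdkn1a 0.76, Ero1a 0.71 and Ccnd1 0.67. The lower differences were Car12 -3.33, Or2h15 -3.21, Mpzl2 -3.18, Prr15 -3.09, Duoxa2 -2.61, Crispld2 -2.600, Igfbp5 -2.56, Serpinb9 -2.53 and Oas1k -2.49. Also lower were Chn2 -2.48, Gem -2.37, Fbxo32 -2.35, Ocln -2.000, Itga1 -1.995, Sfrp4 -1.85, Itga8 -1.84, Actg2 -1.82 and Krt8 -1.79. Further lower values were Synpo2 -1.74, Tp53inp1 -1.67, Sesn3 -1.55, Ankrd1 -1.52, Lef1 -1.49, Dusp14 -1.43, Mmp16 -1.37, Cd68 -1.36 and Pik3r3 -1.33. Others below 0 were Mt1 -1.32, Rragd -1.28, Mmp19 -1.28, Ddit4 -1.28, Gpnmb -1.23, Plat -1.23, Dkk3 -1.22, Irs1 -1.21 and Gpx3 -1.16. The smaller negative ones were Acta2 -1.02, Pdgfra -0.87 and Ctsd -0.71. For 22 genes the call was lost without some 1 array (highest adjusted p 0.118 in limma). Of these, the higher values were Adsl 0.85, Aen 0.94, Areg 1.48, Aurkb 0.95, Ccna2 0.74, Ccne2 0.63, Cdt1 1.100, Dkc1 1.12, Ect2 0.604, Il1rn 1.41, Jund 0.88, Mthfd1l 1.21, Rfc3 0.94 and Wnt10b 0.76, and the lower values were Cdkn2b -0.88, Cxcl6 -1.52, Dusp10 -0.64, Egln3 -1.01, Erbb2 -0.69, Mapk3 -0.68, Tcp11l2 -0.99 and Tm7sf2 -1.05. Of the probe sets without a symbol, picked after their values were seen, TC0500004052.rn.2 differed by 5.73, TC1000000671.rn.2 differed by 5.41, TC0300004616.rn.2 differed by -2.88, TC0300002197.rn.2 differed by -2.15.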

How the results depend on the processing

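Among the 98 named genes, no called difference reversed in 2445 comparisons, 273 of which lost the call. Differences near 0 that were never called did change sign: Csf1r (-0.45 to 0.17), Mgp (-0.18 to 0.26), St6gal1 (-0.29 to 0.11) and Dusp6 (-0.09 to 0.05). Apart from a 2-fold threshold and limma treat, all losses were among the 22 genes that lost it without some 1 array. Of the 981 differences (503 higher, 478 lower), 449 (194 and 255) passed a 2-fold threshold, as did 1198 (595 raised, 603 lowered) of the responses in ELT3 and 789 (449 and 340) of those in ELT3-245 cells, and 72 (23 and 49) passed treat against 1.5-fold. With dim probe sets dropped, 767 were higher. With no fold threshold on the responses, 74 of the 981 were called in opposite directions, 217 in the same direction and 4 in neither line. Leaving out 1 array gave 534 to 893 calls (250 to 486 higher, 284 to 409 lower), 3551 to 3765 for the ELT3 response and 2286 to 2522 for that of ELT3-245 cells. Quantile normalization gave 1052 and median centring 927, with 48.2% and 56.4% higher against 51.3%. Same-numbered samples deviated together with r of -0.12 to 0.22 (4 of 18 over 0.1), differently numbered ones with -0.21 to 0.13 (3 of 36). Between groups other than ELT3 DMSO every same-numbered r lay above 0 (0.01 to 0.22), while those with ELT3 DMSO ran from -0.12 to 0.03. Whether replicate numbers mark samples handled together was not tested. A replicate block gave 825 calls, 3691 for the ELT3 response and 2469 for that of ELT3-245 cells. The causes were not tested. Signals below the median of all values limit what a further fall can show, 1 line stands for resistance, and probe sets without a symbol could not be read as genes.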
